A study of Homo sapiens with 10 samples.

Results

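The alpha and beta tubulin isotypes of HEK293T cells were followed through overexpression of BRSK2 or BRSK1. They were taken as the 10 gene symbols TUBA1A, TUBA1B, TUBA1C, TUBA4A, TUBB, TUBB2A, TUBB2B, TUBB4A, TUBB4B and TUBB6 in the deposited gene counts, so they make up 10 of 58676 genes in the tables, and all 10 were among the 16936 genes that passed the filter on low counts. HEK293T is a human line derived from embryonic kidney. Bulk RNA was sequenced from 3 libraries with BRSK2 overexpressed for 24 h, 3 with BRSK1 overexpressed for 24 h, 2 with hcRED, a far-red fluorescent protein, overexpressed for 24 h, and 2 labelled Mock, for which the labels give no time. All 10 libraries are from the same parental line in medium with serum, and the labels do not say whether replicates were separate cultures, which means that a p-value here reflects how these particular libraries vary, and that variation may be technical. Because the cells were sequenced in bulk, fewer cells with a transcript and less of it per cell cannot be told apart.

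Microtubules are hollow polymers of alpha and beta tubulin heterodimers, and each subunit is encoded by several genes whose proteins, the isotypes, differ mostly at their C-terminal tails. The pool of free dimers feeds back on its own messages: when free tubulin rises, TTC5 binds the first residues of the tubulin chain as it leaves the ribosome and brings in the CCR4-NOT deadenylase, and the message is degraded. BRSK1 and BRSK2 are relatives of AMPK, known in neurons for setting polarity and for phosphorylating proteins that bind microtubules.

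The coding starts are shown because they encode the residues that TTC5 reads. The GENCODE transcripts (GRCh38) give the first 4 codons below, 5′ to 3′, with the fourth codon in capitals.
TUBA1A: atgcgtgagTGC
TUBA1B: atgcgtgagTGC
TUBA1C: atgcgtgagTGC
TUBA4A: atgcgtgaaTGC
TUBB: atgagggaaATC
TUBB2A: atgcgcgagATC
TUBB2B: atgcgtgagATC
TUBB4A: atgcgggagATC
TUBB4B: atgagggaaATC
TUBB6: atgagggagATC
The fourth codon was TGC in all 4 alpha isotypes and ATC in all 6 beta isotypes. Coding sequences were 84.4% to 97.2% identical among the alpha isotypes, 80.9% to 98.1% among the beta isotypes, and 52.3% to 53.9% between an alpha and a beta isotype. The closest beta pair was TUBB2A and TUBB2B, identical at 1313 of 1338 aligned bases, and the closest alpha pair was TUBA1A and TUBA1B, identical at 1318 of 1356. This bears on how reads can be assigned. Of all 100-base windows of the transcript, 56.4% of those of TUBB2A and 46.2% of those of TUBB2B also occurred in a transcript of another gene, as did 37.2% of TUBA1B, 18.3% of TUBA1A and 11.5% of TUBA1C. The shares were 5.1% for TUBB, 2.86% for TUBB4B and 1.84% for TUBA4A, and TUBB4A and TUBB6 shared none. How the authors' counter treated reads that fit several genes is not given in the sources used here, so the levels of TUBB2A, TUBB2B and the TUBA1 isotypes are uncertain to that extent.

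Total counts per library ran from 16516116 to 24304302, of which 29855 to 53713 fell on the 10 isotypes. The overexpressed genes matched the labels: BRSK2 took 69928, 90787 and 103640 CPM of the total (counts scaled to a common library total) in the BRSK2 libraries and at most 99.0 elsewhere, and BRSK1 took 47151, 65221 and 69608 in the BRSK1 libraries and at most 28.7 elsewhere. All levels below are CPM scaled by edgeR's TMM factors unless stated otherwise. The summed markers of other cells that a culture could hold ranged from 27.2 to 37.7 CPM with BRSK2, 25.5 to 38.4 with BRSK1 and 32.5 to 40.9 in the controls for 5 fibroblast genes. For 4 keratinocyte genes they ranged from 97.3 to 120.5, 98.7 to 193.5 and 103.2 to 117.2, in the same order. Those of 5 white blood cell genes stayed at or under 3.79 in every library, with 1 gene at 0 throughout, and those of 3 endothelial genes at or under 0.379. Their part in the results was not tested.

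Summed over the 10 isotypes, tubulin transcripts stood lower with either kinase. The sum was 2173, 2041 and 1899 CPM in the BRSK2 libraries and 2132, 2052 and 1962 CPM in the BRSK1 libraries, against 2531 and 2360 with hcRED and 2530 and 2307 with Mock. Every library with a kinase was below every control library. The mean log2 sum minus that of the controls, with hcRED and Mock weighing equally, was -0.26 for BRSK2 and -0.25 for BRSK1, beside a within-group SD of 0.0818 on the log2 scale. No p-value is given for a sum over genes chosen with earlier results known. Within each kinase group the library with the most kinase reads had the lowest sum: the BRSK2 library with 103640 CPM of BRSK2 had 1899 CPM of tubulin and the one with 69928 had 2173, and the BRSK1 library with 69608 CPM of BRSK1 had 1962 and the one with 47151 had 2132. With 3 libraries a group, this order is a description only. It is also the order of the replicate numbers, since kinase reads rose with replicate number in both groups. The higher-numbered replicate had the lower sum in the controls as well, from 2531 to 2360 with hcRED and from 2530 to 2307 with Mock. Kinase level and replicate number therefore cannot be told apart here.

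Alpha and beta transcripts were lower in like proportion. The 4 alpha isotypes summed to 470 CPM on average with BRSK2 and 454 with BRSK1, against 554 in the 4 controls, and the 6 beta isotypes to 1568 ± 118 with BRSK2 and 1594 ± 65.5 with BRSK1 (SD, n = 3 each), against 1878 ± 61.3 in the controls (SD, n = 4). The beta to alpha ratio of counts was 3.34 ± 0.139 with BRSK2 and 3.52 ± 0.149 with BRSK1 (SD, n = 3 each), against 3.40 ± 0.236 in the controls (SD, n = 4). The ratios of the groups overlapped.

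Per kilobase of the deposited gene length, TUBB led, followed by TUBB4B and TUBA1B, in every library. TUBB, the broadly expressed class I beta isotype, lay between 282.7 and 325.2 CPM per kb with BRSK2 and between 276.3 and 302.6 with BRSK1, against 318.5 to 362.3 in the controls. TUBA4A was the lowest of the 10, at 0.858 to 0.953 CPM per kb with BRSK2 and 0.792 to 1.35 with BRSK1, against 1.22 to 1.46 in the controls. Some neighbours in this order could not be separated: in the controls TUBB2B (34.9 to 36.1 CPM per kb) lay within the range of TUBA1C (31.3 to 39.7), and TUBB2A (17.6 to 21.7) overlapped TUBB6 (19.0 to 24.0). In the BRSK2 libraries TUBB2B (36.4 to 42.7 CPM per kb) was above TUBA1C (28.7 to 33.8) with no overlap, while TUBA1A (17.6 to 17.9), above TUBB6 in every control library, lay within the range of TUBB6 (16.3 to 18.0).

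**Figure D1:**
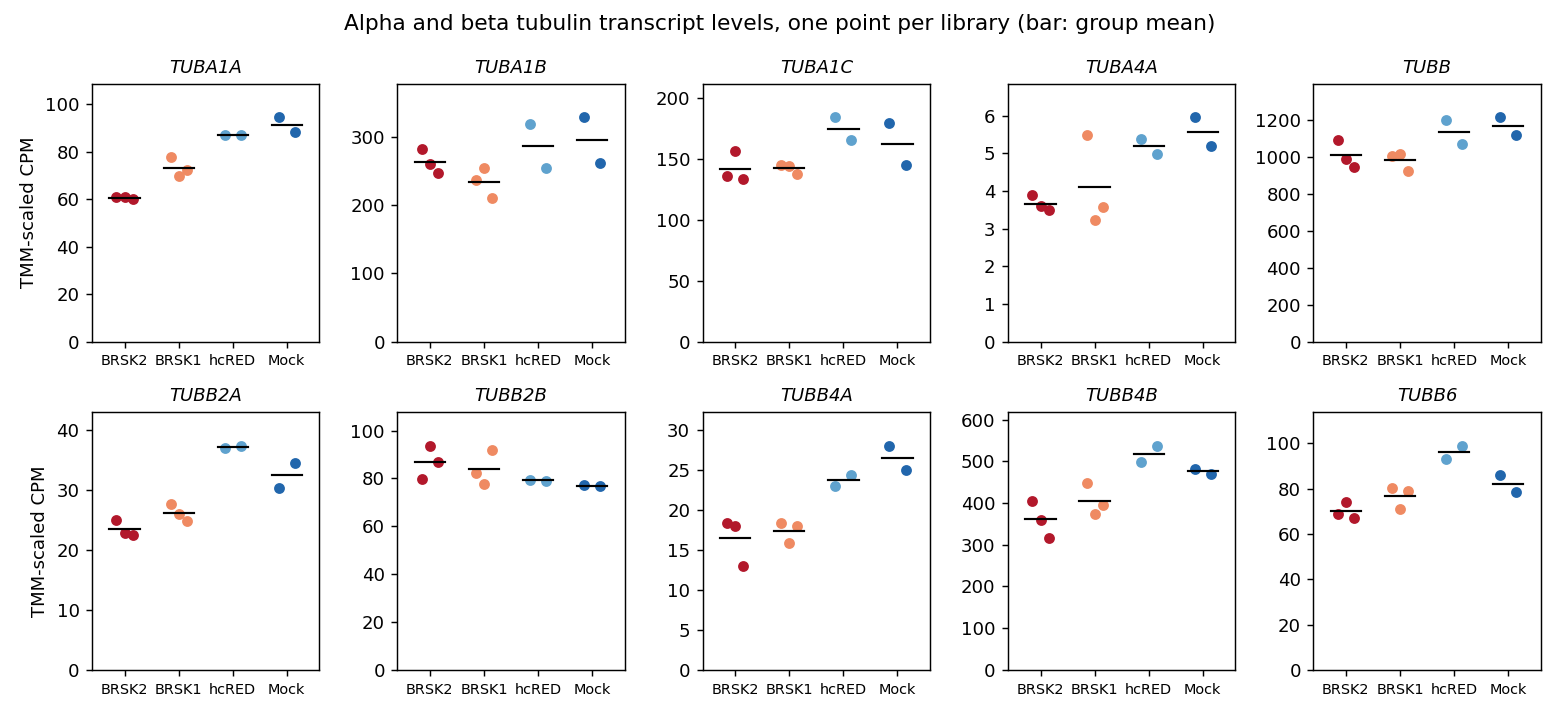
TMM-scaled CPM of each of the 10 isotypes (vertical axes, each starting at 0), with one point per library and a bar at the group mean, for BRSK2 (n = 3), BRSK1 (n = 3), hcRED (n = 2) and Mock (n = 2). TUBA1A shows the BRSK2 libraries at 60.0 to 61.1 CPM below the BRSK1 libraries at 69.6 to 78.0 and the controls at 87.1 to 94.6, while TUBB2B shows no lowering.

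Each kinase was then compared, gene by gene, with the mean of hcRED and Mock in one edgeR quasi-likelihood fit over all 10 libraries, with Benjamini-Hochberg adjustment over the 16936 genes and a threshold of 0.05. With BRSK2, 6 of the 10 isotypes fell (TUBA1A, TUBA1C, TUBB2A, TUBB4A, TUBB4B and TUBB6), 0 rose and 4 did not pass, where 3.05% of all tested genes fell and 4.77% rose. With BRSK1, 6 fell (TUBA1A, TUBA1C, TUBB, TUBB2A, TUBB4A and TUBB4B), 0 rose and 4 did not pass, where 2.66% of all tested genes fell and 3.77% rose. At an unadjusted p under 0.05 in edgeR, 1 isotype was higher with BRSK2 (TUBB2B) and 0 with BRSK1, and DESeq2 called 0 higher with either. Counting libraries instead, all 3 BRSK2 libraries lay below all 4 controls for 6 isotypes (TUBA1A, TUBA4A, TUBB2A, TUBB4A, TUBB4B and TUBB6) and above them for 1, TUBB2B, where 8.2% of all tested genes lay below and 9.09% above. The BRSK1 libraries lay below the controls for 6 isotypes (TUBA1A, TUBA1B, TUBB, TUBB2A, TUBB4A and TUBB4B) and above them for 0, where 8.44% of all tested genes lay below and 9.93% above. The median log2 fold change of the 10 was -0.40 with BRSK2 and -0.29 with BRSK1, beside 0.00 over all tested genes in both. These comparisons share their 4 control libraries, so their values stand side by side and the likeness between them is no result. The authors' deposited tables, which list genes past their own threshold, hold 5 of the isotypes for BRSK2 (TUBA1A, TUBB2A, TUBB4A, TUBB4B and TUBB6) and 6 for BRSK1 (TUBA1A, TUBA1B, TUBB, TUBB2A, TUBB4A and TUBB4B).

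**Figure D2:**
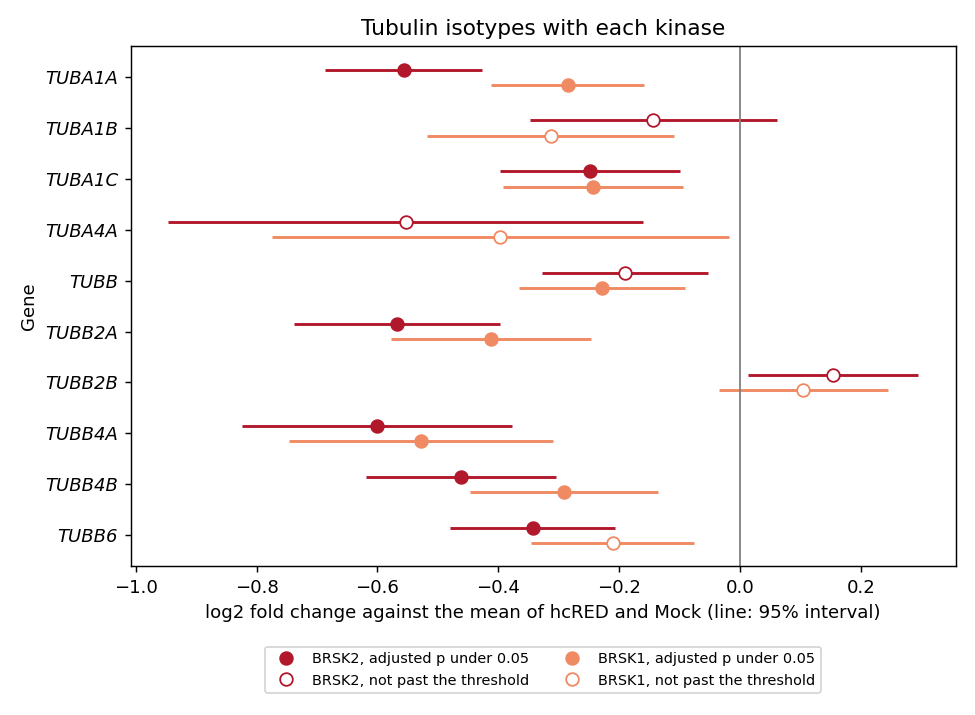
Log2 fold change of each isotype against the mean of hcRED and Mock (horizontal axis) with its 95% interval, BRSK2 above BRSK1 within each gene; filled points passed an adjusted p of 0.05 in edgeR's test and open points did not. All isotypes but TUBB2B lie left of 0 with both kinases, from -0.60 for TUBB4A with BRSK2 to -0.14 for TUBA1B with BRSK2.

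Among the alpha isotypes, TUBA1A fell most clearly. TUBA1A, the alpha isotype that dominates in developing neurons and whose mutations cause lissencephaly, stood at 61.1, 61.0 and 60.0 CPM in the BRSK2 libraries and 78.0, 69.6 and 72.3 CPM in the BRSK1 libraries, against 87.1 and 87.1 with hcRED and 94.6 and 88.5 with Mock. The 3 groups did not overlap, BRSK2 being lowest and the controls highest. Its log2 fold change was -0.56 ± 0.06 (SE) with BRSK2 and -0.29 ± 0.06 with BRSK1, with adjusted p-values from edgeR of 4.71e-06 and 0.00833, and the BRSK2 call held under all 23 alternatives. The BRSK1 call was lost with hcRED alone as the control, without BRSK1 replicate 2 and without BRSK1 replicate 3 (largest adjusted p from edgeR 0.109).

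TUBA1C, a broadly expressed alpha isotype, had 136, 156 and 133 CPM with BRSK2 and 145, 144 and 138 with BRSK1, against 184 and 165 with hcRED and 180 and 145 with Mock. Mock replicate 3 was level with the kinase libraries, so the groups overlapped. Its log2 fold changes of -0.25 ± 0.07 with BRSK2 and -0.24 ± 0.07 with BRSK1 passed narrowly, with adjusted p-values from edgeR of 0.0371 and 0.0434, and were lost under 8 and 11 of 23 alternatives. TUBA1A and TUBA1C lie on opposite strands of chromosome 12 (chr12:49184796-49189324 and chr12:49188736-49274603, hg38) and overlap by 589 bases. The strand setting of the counting is not given in the sources used here, and reads from that stretch cannot be told apart without it.

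The other broadly expressed alpha isotype, TUBA1B, had 283, 261 and 247 CPM with BRSK2 and 237, 255 and 211 with BRSK1, against 319 and 255 with hcRED and 329 and 262 with Mock. The control libraries themselves spread over a wide range, hcRED replicate 1 and Mock replicate 2 being high. BRSK2 replicates 1 and 2 lay inside that range and replicate 3 below it, and the BRSK1 libraries all lay below it. The log2 fold changes were -0.14 ± 0.10 with BRSK2 and -0.31 ± 0.10 with BRSK1 (adjusted p from edgeR 0.408 and 0.0680). For BRSK1 the authors' deposited table lists TUBA1B with a log2 fold change of -0.30 and an adjusted p of 0.0492, and 8 of 23 alternatives here also called it, all lower.

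TUBA4A, linked to platelets and to amyotrophic lateral sclerosis, was the scarcest isotype, with 55 to 73 raw counts with BRSK2 and 73 to 116 with BRSK1, against 102 to 118 in the controls. In CPM it had 3.89, 3.59 and 3.50 with BRSK2 and 5.49, 3.23 and 3.57 with BRSK1, against 5.37 and 4.99 with hcRED and 5.96 and 5.20 with Mock. All BRSK2 libraries were below all controls, and BRSK1 replicate 1 lay among the controls. With a log2 fold change of -0.55 ± 0.19 for BRSK2 and -0.40 ± 0.18 for BRSK1 it did not pass (adjusted p from edgeR 0.0740 and 0.207). Of the 23 alternatives, 3 called it lower with BRSK2 and 1 with BRSK1. STK16, which overlaps TUBA4A by 627 bases on the opposite strand and had 498 to 518 counts in the controls, rose with BRSK2 by 0.40 ± 0.09 on the log2 scale (adjusted p from edgeR 0.00514); its part in the TUBA4A counts was not tested.

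Of the beta isotypes, 3 fell with both kinases: TUBB4A, TUBB2A and TUBB4B. TUBB4A, an isotype of brain whose mutations cause a hypomyelinating leukodystrophy, had 18.3, 18.0 and 13.0 CPM with BRSK2 and 18.3, 15.8 and 18.0 with BRSK1, against 23.0 and 24.4 with hcRED and 28.1 and 25.1 with Mock. Every kinase library was below every control. Its log2 fold changes, -0.60 ± 0.11 with BRSK2 and -0.53 ± 0.11 with BRSK1, were the largest among the 10 in both comparisons (adjusted p from edgeR 0.00123 and 0.00518). The BRSK2 call held under all 23 alternatives, and the BRSK1 call was lost with hcRED alone as the control (adjusted p from edgeR 0.0909).

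TUBB4B, a broadly expressed class IV isotype found in the axonemes of cilia and the second most abundant tubulin here per kilobase, had 405, 359 and 317 CPM with BRSK2 and 449, 372 and 396 with BRSK1, against 499 and 538 with hcRED and 482 and 469 with Mock. Neither kinase group overlapped the controls, and BRSK2 replicate 3 was the lowest library. It fell by 0.46 ± 0.08 on the log2 scale with BRSK2 and by 0.29 ± 0.08 with BRSK1 (adjusted p from edgeR 0.000679 and 0.0249). The BRSK2 call held under all 23 alternatives, and the BRSK1 call was lost under 8, among them the loss of any 1 control library and of BRSK1 replicate 2 or 3 (largest adjusted p from edgeR 0.136).

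TUBB itself, the most abundant isotype, had 1092, 992 and 950 CPM with BRSK2 and 1009, 1017 and 928 with BRSK1, against 1204 and 1070 with hcRED and 1217 and 1123 with Mock. The BRSK1 libraries were all below the controls, and BRSK2 replicate 1 was above hcRED replicate 3. The log2 fold change was -0.19 ± 0.07 with BRSK2 (adjusted p from edgeR 0.0817) and -0.23 ± 0.07 with BRSK1 (adjusted p from edgeR 0.0404). The BRSK1 call was lost under 10 of 23 alternatives, and 5 alternatives called TUBB lower with BRSK2.

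TUBB6, a class V isotype of many tissues, had 69.0, 73.9 and 67.0 CPM with BRSK2 and 80.2, 70.9 and 79.1 with BRSK1, against 93.2 and 99.0 with hcRED and 85.9 and 78.3 with Mock. Its BRSK2 libraries were below all controls, and 2 BRSK1 libraries were above Mock replicate 3. It fell with BRSK2, by 0.34 ± 0.07 on the log2 scale (adjusted p from edgeR 0.00236), a call lost with Mock alone as the control (adjusted p from edgeR 0.0850), and had a log2 fold change of -0.21 ± 0.07 with BRSK1 (adjusted p from edgeR 0.0542). The gene AFG3L2 overlaps TUBB6 by 15377 bases on the other strand and did not pass with either kinase, at 0.08 ± 0.06 with BRSK2 and 0.00 ± 0.06 with BRSK1.

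The near-identical TUBB2A and TUBB2B, neighbours on chromosome 6 (chr6:3153669-3157526 and chr6:3224261-3231730, hg38, minus strand) and both abundant in brain, did not move alike. TUBB2A had 25.0, 22.9 and 22.5 CPM with BRSK2 and 27.7, 26.0 and 24.9 with BRSK1, against 37.0 and 37.5 with hcRED and 30.4 and 34.6 with Mock. All kinase libraries were below all controls. It fell by 0.57 ± 0.08 on the log2 scale with BRSK2 and by 0.41 ± 0.08 with BRSK1 (adjusted p from edgeR 0.000144 and 0.00450), and both calls held under all 23 alternatives.

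TUBB2B, whose mutations cause polymicrogyria, had 79.9, 93.7 and 86.8 CPM with BRSK2 and 82.2, 77.7 and 91.7 with BRSK1, against 79.2 and 79.1 with hcRED and 77.1 and 76.6 with Mock. Its BRSK2 libraries were all above the controls, and BRSK1 replicate 2 lay among the controls. The log2 fold changes were 0.15 ± 0.07 with BRSK2 and 0.10 ± 0.07 with BRSK1, with 95% intervals of 0.01 to 0.29 and -0.03 to 0.24, and neither passed (adjusted p from edgeR 0.173 and 0.385). Without BRSK2 replicate 1 the BRSK2 value passed, at an adjusted p from edgeR of 0.0452. PSMG4 overlaps TUBB2B by 328 bases on the opposite strand and had 600 to 639 counts in the controls. It did not pass with either kinase, at -0.02 ± 0.08 with BRSK2 and -0.11 ± 0.08 with BRSK1 on the log2 scale. The part of PSMG4 in the TUBB2B counts was not tested.

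Set against each other, TUBB2A made up 0.313, 0.244 and 0.260 of the TUBB2B counts with BRSK2 and 0.337, 0.335 and 0.271 with BRSK1, against 0.467 and 0.474 with hcRED and 0.395 and 0.452 with Mock. No kinase library reached the lowest control. The sum of both genes does not depend on how counted reads are split between them, but it does depend on whether shared reads were counted. It was 110.3 ± 5.93 CPM with BRSK2 and 110.1 ± 6.42 with BRSK1 (SD, n = 3 each), against 112.9 ± 4.31 in the controls (SD, n = 4). The sums of the groups overlapped. This ratio and this sum were added after the values of both genes had been seen and carry no test. For TUBA1A, TUBA1B and TUBA1C, the other closely related set, the sum was 466.1 ± 22.4 CPM with BRSK2 and 449.9 ± 25.8 with BRSK1 (SD, n = 3 each), against 549.0 ± 55.3 in the controls (SD, n = 4), and here both kinase groups lay below the lowest control library, at 495.3 CPM.

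**Figure D3:**
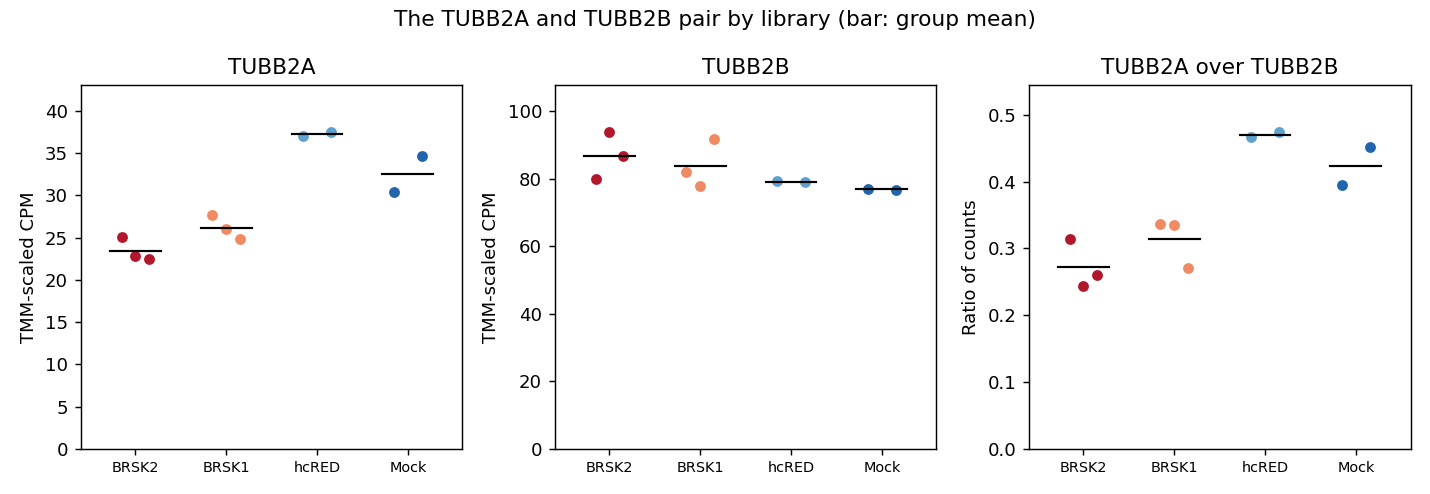
TMM-scaled CPM of TUBB2A (left) and TUBB2B (middle) and the ratio of their counts (right), one point per library and a bar at the group mean, for BRSK2, BRSK1, hcRED and Mock. The ratio stays between 0.244 and 0.337 with the kinases and between 0.395 and 0.474 in the controls.

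The ends of the TUBB2A and TUBB2B coding sequences, which encode the C-terminal tails, were close to identical. The last 60 coding bases are given 5′ to 3′ from the GENCODE transcripts, with the bases that differ between them in capitals.
TUBB2A: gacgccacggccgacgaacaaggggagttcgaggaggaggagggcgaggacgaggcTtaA
TUBB2B: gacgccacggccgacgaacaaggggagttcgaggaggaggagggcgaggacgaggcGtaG
They differed at 2 of 60 bases, and those of TUBA1A and TUBA1B at 0 of 60. The stretch includes the stop codon, and both differences leave the encoded residue or stop unchanged, so it encodes the same tail in TUBB2A and TUBB2B.

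The promoters of the pair were far less alike. RefSeq windows on GRCh38.p14 from 250 bases before to 50 after the start are given 5′ to 3′ on the coding strand, chr6:3157495-3157794 for TUBB2A and chr6:3227604-3227903 for TUBB2B, with any CCAAT box (CCAAT, or ATTGG where it lies on the other strand) in capitals.
TUBB2A: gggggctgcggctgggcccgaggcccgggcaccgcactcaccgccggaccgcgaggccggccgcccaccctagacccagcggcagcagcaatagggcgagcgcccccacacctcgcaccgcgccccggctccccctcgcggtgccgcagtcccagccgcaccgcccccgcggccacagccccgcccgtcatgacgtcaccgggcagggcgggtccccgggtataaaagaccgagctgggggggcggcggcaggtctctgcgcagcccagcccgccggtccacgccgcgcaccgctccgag
TUBB2B: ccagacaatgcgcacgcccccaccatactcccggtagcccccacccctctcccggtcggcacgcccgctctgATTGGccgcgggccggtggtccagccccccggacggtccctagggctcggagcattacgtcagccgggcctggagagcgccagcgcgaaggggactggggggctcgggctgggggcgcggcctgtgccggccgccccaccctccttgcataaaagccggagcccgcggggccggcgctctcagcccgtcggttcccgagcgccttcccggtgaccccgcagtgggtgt
Aligned end to end they were identical at 147 of 310 positions (47.4%). A CCAAT box, the site bound by NF-Y, was found 178 bases before the start of TUBB2B and not in the window of TUBB2A. TGACNNNGC, the core of the antioxidant response element bound by NRF2, was found in the TUBB2B window and in none of the other 9 isotypes' windows. On either strand, 13.3% of all 35116 windows held it, and 16.1% of 27305 genes held it in any window. In TUBB2B the match (tgaccccgc) lies in the 50 bases after the start, not before it. A TATAAA box was found in the TUBB2A window alone, where 11.5% of all windows held one. Counting a gene with any of its windows, 7 of the 10 isotypes held a CCAAT box (TUBA1A, TUBA1C, TUBB, TUBB2B, TUBB4A, TUBB4B and TUBB6), beside 39.7% of 27305 genes, and 8 held GGGCGG, the core of an Sp1 site, beside 48.3%. These are matches of letters, not bound sites.

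TUBB4B, which fell with both kinases, had 3 CCAAT boxes in its window, the most of any isotype. Its window, chr9:137241037-137241336 on the plus strand, is shown with the boxes in capitals.
TUBB4B: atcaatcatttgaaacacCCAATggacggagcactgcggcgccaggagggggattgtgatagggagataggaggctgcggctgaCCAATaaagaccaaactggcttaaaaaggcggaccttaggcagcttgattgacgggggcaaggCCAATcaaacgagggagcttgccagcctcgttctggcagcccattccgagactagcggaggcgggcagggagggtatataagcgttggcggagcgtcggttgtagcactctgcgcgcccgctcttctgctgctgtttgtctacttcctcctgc
They start 232, 166 and 103 bases before the annotated start. A CCAAT box was present in some isotypes that fell and in TUBB2B, which did not fall, and was absent from the window of TUBB2A, which fell. Its part in the levels was not tested.

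Shares of the summed tubulin counts, which need no scaling between libraries, gave the balance among the isotypes. TUBB4B held 18.7%, 17.6% and 16.7% of tubulin counts with BRSK2 and 21.1%, 18.2% and 20.2% with BRSK1, against 19.7% and 22.8% with hcRED and 19.1% and 20.3% with Mock. TUBB2B held 3.67%, 4.59% and 4.57% with BRSK2 and 3.85%, 3.79% and 4.68% with BRSK1, against 3.13% and 3.35% with hcRED and 3.05% and 3.32% with Mock. TUBA1A held 2.81%, 2.99% and 3.16% with BRSK2 and 3.66%, 3.39% and 3.68% with BRSK1, against 3.44% and 3.69% with hcRED and 3.74% and 3.84% with Mock. TUBB2B was higher in share in all 6 kinase libraries than in any control. The BRSK2 libraries lay below all controls for TUBB4B and TUBA1A, and the BRSK1 libraries overlapped the controls for both.

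With BRSK2 the shares of TUBA1A, TUBA4A, TUBB2A, TUBB4A and TUBB4B lay below all controls and that of TUBB2B above, each with a two-sided exact permutation p of 0.0571, the smallest that 3 against 4 libraries can give. With BRSK1 the share of TUBB2B alone was apart, above the controls, with the same exact p of 0.0571. TUBB held 49.6% of tubulin counts on average with BRSK2 and 48.1% with BRSK1, against 47.4% in the controls, and overlapped the controls with both (exact p 0.114 and 0.629). A share is relative to the other isotypes, and the CPM of TUBB2B did not pass with either kinase.

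**Figure D4:**
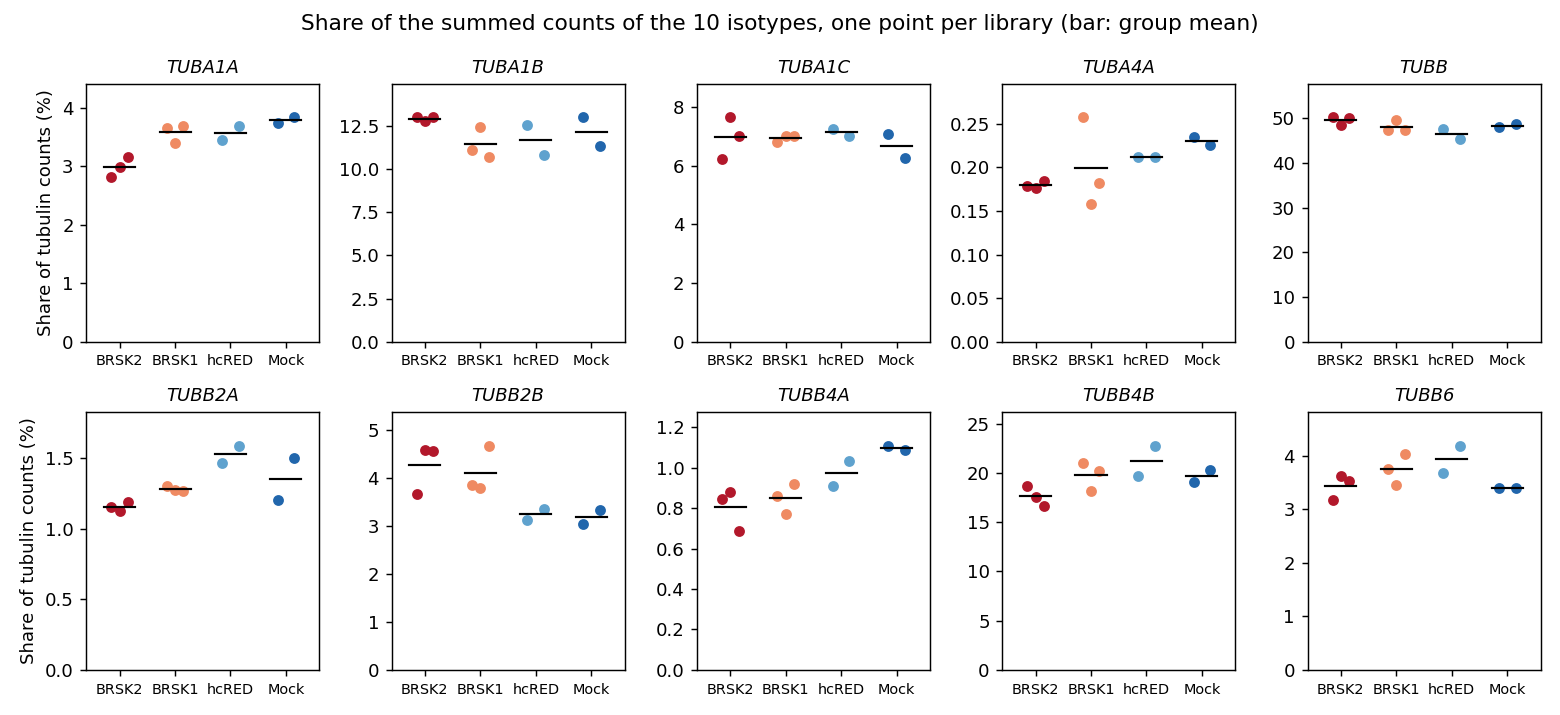
Share of the summed counts of the 10 isotypes (vertical axes, percent, each starting at 0) by isotype, one point per library and a bar at the group mean, for BRSK2, BRSK1, hcRED and Mock. TUBB2B lies at 3.67% to 4.68% in the kinase libraries and at 3.05% to 3.35% in the controls.

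The kinases were also compared with each other, which tests the difference between them directly. With BRSK2 against BRSK1, 0 isotypes passed in either direction in edgeR's test, where 0.118% of all tested genes were lower and 0.23% higher, and 2 had an unadjusted p under 0.05. For 1 isotype, TUBA1A, the BRSK2 libraries were all below the BRSK1 libraries and for 0 all above, where 9.02% of all tested genes were below and 8.65% above. TUBA1A also came nearest in the test, with a log2 fold change of -0.27 ± 0.07, a 95% interval of -0.41 to -0.13 and an adjusted p from edgeR of 0.0822. DESeq2, the fit with no count filter, the fit scaled by library totals and the fit with a replicate block each called it lower, with adjusted p-values down to 0.0216. Over all genes these fits called 57, 68, 182 and 101 lower, in that order, against 20 in the main fit. They called 104, 120, 24 and 166 higher, against 39. Library totals also put the median of all genes at -0.0655. TUBB4B was the other isotype with an unadjusted p under 0.05, at -0.17 ± 0.08 with a 95% interval of -0.34 to -0.0042 (adjusted p from edgeR 0.390). For the other 8 the log2 fold changes ran from -0.16 to 0.17, and their 95% intervals all included 0, which does not show that the kinases act alike on them.

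Between the controls, hcRED against Mock, 0 isotypes passed in either direction in edgeR's test, where 0.0236% of all tested genes were lower and 0.0059% higher, and DESeq2 also called 0. TUBB6 had the only unadjusted p under 0.05, with a log2 fold change of 0.23 ± 0.09 (adjusted p from edgeR 0.412). Both hcRED libraries were below both Mock libraries for 2 isotypes (TUBA1A and TUBB4A) and above them for 4 (TUBB2A, TUBB2B, TUBB4B and TUBB6), where 20.3% of all tested genes were below and 20% above. The median log2 fold change over the 10 isotypes was 0.00.

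Other alpha and beta tubulin genes were near silent. TUBA3D, TUBA8, TUBB1 and TUBB3 passed the count filter with at most 34 counts in a library, and 0 of these 4 passed edgeR's test with either kinase, with 1 at an unadjusted p under 0.05 with BRSK2, 0 with BRSK1 and 0 called by DESeq2. TUBB3, the isotype used as a marker of neurons, had 16, 5 and 3 counts with BRSK2 and 11, 9 and 3 with BRSK1, against 2 and 13 with hcRED and 3 and 1 with Mock. TUBA3C and TUBAL3 had 0 counts in all libraries, and TUBA3E and TUBB8 at most 2. The 39 tubulin pseudogenes in the tables summed to 210 to 330 counts per library, or 0.526% to 0.703% of the isotype counts, most of them on TUBBP5, and the 4 that passed the filter did not pass the test with either kinase.

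Genes that fold tubulin did not pass the test with either kinase. The CCT chaperonin, which folds newly made tubulin, had 0 of 8 tested subunits pass with either kinase, with log2 fold changes from -0.06 to 0.09 for BRSK2 and from -0.05 to 0.17 for BRSK1. The highest of these, CCT8 with BRSK1 at 0.17 ± 0.05, was the only CCT value with an unadjusted p under 0.05 in edgeR (adjusted p 0.0567), and DESeq2 called it higher. Prefoldin, which hands tubulin chains to CCT, had 0 of 6 pass, and the tubulin folding cofactors, which join alpha and beta into dimers, had 0 of 7 pass, with either kinase, and DESeq2 called 0 of them. At an unadjusted p under 0.05 in edgeR, 1 prefoldin subunit was lower with BRSK2 and 0 were lower or higher with BRSK1, and 0 cofactors were with either. Medians were -0.08 for prefoldin and -0.04 for the cofactors with BRSK2, and 0.08 and 0.03 with BRSK1.

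Of the 11 genes of tubulin message autoregulation, TTC5 and subunits of CCR4-NOT, 0 passed with BRSK2 and 1 fell with BRSK1, CNOT9, by 0.29 ± 0.08 on the log2 scale (adjusted p from edgeR 0.0335). Over all tested genes, 3.05% fell with BRSK2 and 2.66% with BRSK1. The log2 fold change was negative for 10 of the 11 with BRSK2 and for 7 with BRSK1. Medians were -0.097 and -0.098, beside 0.00 over all tested genes in both. Apart from CNOT9, DESeq2 called 0 with either kinase. At an unadjusted p under 0.05 in edgeR, CNOT9 was also lower with BRSK2, and of the other genes 3 were lower with BRSK2 and 2 with BRSK1. TTC5 had 28.6, 27.8 and 28.4 CPM with BRSK2 and 29.5, 32.9 and 31.6 with BRSK1, against 29.6 and 29.1 with hcRED and 29.1 and 30.4 with Mock. Its log2 fold change was -0.06 ± 0.08 with BRSK2 and 0.09 ± 0.08 with BRSK1, and it did not pass in either. Its message level says nothing of its activity.

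Gamma tubulin TUBG1, which nucleates microtubules, fell with BRSK1 by 0.21 ± 0.06 on the log2 scale (adjusted p from edgeR 0.0317), and 0 of the 4 gamma, delta and epsilon tubulins passed with BRSK2 (1 was lower and 2 were higher at an unadjusted p under 0.05 in edgeR, and DESeq2 called 0). Among 18 tested tubulin modifying enzymes, 2 rose with BRSK2 and 0 fell, and 2 rose with BRSK1 and 1 fell. Over all tested genes, 4.77% rose and 3.05% fell with BRSK2, and 3.77% rose and 2.66% fell with BRSK1. HDAC6, a deacetylase of alpha tubulin, rose with both: it had 62.2, 66.5 and 70.7 CPM with BRSK2 and 64.5, 66.8 and 74.0 with BRSK1, against 57.2 and 60.8 with hcRED and 56.0 and 51.2 with Mock. Its log2 fold changes were 0.24 ± 0.07 and 0.28 ± 0.07 (adjusted p from edgeR 0.0362 and 0.0171), and all 6 kinase libraries were above all controls. The other 3 belong to the tubulin tyrosine ligase-like family, most of whose members are glycylases or glutamylases: TTLL11 rose by 0.39 ± 0.11 with BRSK2, TTLL1 rose by 0.70 ± 0.20 with BRSK1 at 3.57 to 5.18 CPM, and TTLL12 fell by 0.27 ± 0.07 with BRSK1.

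Of 12 tested severing enzymes and destabilisers, 2 fell and 1 rose with BRSK2, and 0 fell and 1 rose with BRSK1. The shares over all tested genes were 3.05% and 4.77% with BRSK2, and 2.66% and 3.77% with BRSK1. At an unadjusted p under 0.05 in edgeR, 5 were lower and 2 higher with BRSK2, and 2 lower and 3 higher with BRSK1. With BRSK2, FIGN, a severing ATPase, fell by 0.36 ± 0.10 on the log2 scale and STMN3, a dimer-sequestering stathmin, by 0.26 ± 0.07 (adjusted p from edgeR 0.0254 and 0.0302). With BRSK1, KIF18B, a kinesin that shortens astral microtubules, rose by 0.30 ± 0.08 (adjusted p from edgeR 0.0259).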

How the data were processed

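RNA from 10 HEK293T libraries was sequenced by the submitters, who name STAR, edgeR, limma and the build hg38 in their processing notes, without versions. No source used here names the program that counted reads, its strandedness or its annotation release. Read counts per gene were deposited by the authors in 1 table per kinase, whose 4 control columns were identical (0 genes differed), and were joined on the gene ID. The deposited log2 CPM values and log2 fold changes, and the p-values and adjusted p-values of the authors' differential expression tables, served only for comparison with the values computed here; gene lengths are those deposited with the counts.

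Counts were filtered with filterByExpr (minimum count 10, minimum total 15), scaled by TMM and fitted with edgeR 4.0.16 in R 4.3.3 (glmQLFit and glmQLFTest, robust) as 4 group means over 10 libraries. Each kinase was contrasted with the controls, the hcRED and Mock means weighing equally, then BRSK2 with BRSK1 and hcRED with Mock. Standard errors were taken as |log2 fold change| over the square root of F, and 95% intervals use the t distribution of the fit. Shares are percentages of the summed counts of the 10 isotypes. Groups come from the genotype in the labels. Same-numbered libraries deviated together weakly at most (correlations of -0.0511 to 0.161 over 12 pairs), and the main fit did not take replicate numbers as pairs. The fit with a replicate block called more genes in every comparison, so a shared effect of replicate number is not excluded. Alternatives were RLE factors, library totals, other filters, DESeq2 1.42.0, limma-voom (limma 3.58.1), a replicate block, other control groups and leaving out each library. All 10 isotypes are named, and from each supporting list its genes with an adjusted p under 0.05; some genes that these rules pick are not reported here. The members and lists were chosen with earlier results of these data known. Sequences were read from GENCODE transcripts and RefSeq promoter windows; protein sequences were not used here.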

Additional observations from a re-analysis of the deposited data

How the results depend on the processing

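The count of isotypes that fell was 4 to 9 with BRSK2 under all alternatives and 2 to 8 with BRSK1. With BRSK1 it was 2 with hcRED alone as the control and 3 with Mock alone. Leaving out 1 library gave 5 to 7 for BRSK2 and 2 to 7 for BRSK1, which was 2 without BRSK1 replicate 2 or 3 and 3 without Mock replicate 2 or hcRED replicate 1. The count that rose with BRSK2 was 0 to 1 over these, the 1 being TUBB2B without BRSK2 replicate 1. For BRSK2 against BRSK1 the count of lower isotypes, 0 as reported, was 1 (TUBA1A) with library totals, no filter, DESeq2 or the replicate block. The fit with the replicate block called 9 lower with BRSK2, among them TUBA1B (adjusted p from edgeR 0.0292), and 8 with BRSK1. Over all genes that fit called 969 lower and 1184 higher with BRSK2, and 932 lower and 1067 higher with BRSK1. For hcRED against Mock it called 286 lower and 148 higher, against 4 and 1 in the main fit. Scaling by library totals put the summed level at -0.36 with BRSK2, called 8 isotypes lower with each kinase and moved the median of all genes by -0.102 with BRSK2 and -0.0351 with BRSK1; over all genes it called 2507 lower and 494 higher with BRSK2, against 517 lower and 808 higher with TMM. The cause of these changes was not tested.

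No isotype's log2 fold change against the controls changed sign. Of the shares under the alternatives, 210 moved by less than the SD of the controls and 10 by more. Against BRSK1, library totals turned the BRSK2 values of TUBB to -0.0286 and of TUBB2B to -0.0174, and for hcRED against Mock they turned TUBA1B to 0.00713 and TUBB to 0.00879. Leaving out 1 library turned others near 0, none of them called: for BRSK2 against BRSK1, TUBA1C ranged over -0.081 to 0.0398, TUBA4A over -0.299 to 0.106, TUBB over -0.019 to 0.0839, TUBB2B over -0.0101 to 0.119 and TUBB4A over -0.152 to 0.0649, and for hcRED against Mock, TUBA1B ranged over -0.21 to 0.129, TUBB over -0.128 to 0.0399 and TUBA1C over -0.0376 to 0.269. DESeq2 gave no adjusted p for TUBA4A in either of these comparisons. TUBA4A had the fewest counts of the isotypes, at 55 to 118 a library, and was called lower with BRSK2 with library totals (adjusted p from edgeR 0.0196), with the replicate block and without BRSK1 replicate 1.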

Other observations

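Among tested genes outside the tubulins, WDR6, PRDX4, CSTF2 and GLRX5 were among the 5 whose log2 CPM followed the log2 of the summed tubulin level most closely over the 10 libraries, with Pearson r of 0.983 for WDR6, 0.978 for PRDX4, 0.968 for CSTF2 and 0.963 for GLRX5. These libraries share the kinase and control groups, so r is a measure of likeness alone and carries no test. PRDX4, a peroxiredoxin of the endoplasmic reticulum, had 157, 146 and 138 CPM with BRSK2 and 161, 151 and 150 with BRSK1, against 193 and 179 with hcRED and 194 and 182 with Mock. GLRX5, a mitochondrial glutaredoxin of iron-sulfur cluster assembly, had 117, 108 and 96.3 CPM with BRSK2 and 112, 111 and 101 with BRSK1, against 128 and 120 with hcRED and 134 and 127 with Mock. The kinase libraries of both genes were below all controls, a pattern that the choice by likeness largely fixes.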
